A study of Mus musculus with 384 samples.

Results

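The 35 genes described here are interferon-stimulated genes, transcripts that cells raise when an interferon binds its receptor. They were taken by name from the deposited table of 21454 genes, whose Ensembl IDs were matched to GENCODE M21, and all 35 were found. The liver RNA came from 192 wild-type Diversity Outbred mice, an outbred stock bred from several inbred founder strains, in which each mouse has its own mix of founder genomes. Animals were killed at 26 weeks of age, and from weaning had eaten either chow containing 6% fat or a high fat diet containing 22% fat (shares of weight). The 4 groups were 50 females on chow, 48 females on high fat, 48 males on chow and 46 males on high fat. The labels name no interferon, virus or other immune stimulus.

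Interferons are secreted when a cell senses foreign or misplaced nucleic acid. Type I interferon binds its receptor, the kinases JAK1 and TYK2 are activated, and a complex that includes STAT2 and IRF9 binds a short DNA element, the interferon-stimulated response element. The genes switched on in this way block viral RNA and protein synthesis, widen the detection of nucleic acids and feed back on the pathway. In liver, hepatocytes, Kupffer cells (the resident macrophages) and other immune cells can all express them.

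The deposited values are an upper-quartile normalized signal with 1 value per gene and mouse. It is not divided by transcript length, so a value can be compared between mice for one gene but not between genes. All 35 genes were among the 14602 with enough signal to test. Estimated depth was 9.78 M to 17.9 M reads per mouse, with group medians of 13.8 M to 14.6 M. Summed signal of 8 hepatocyte markers ran from 11800 to 64600, so every mouse had these defining liver transcripts. Summed pancreas markers were above 10 times their median in 9 mice, and 1 mouse labelled female had little Xist RNA. Fits without these mice are given where they end a call.

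RefSeq promoter windows of GRCm38.p6 (250 bases before to 50 after each transcription start) were available for 25 of the 35 genes. The core of the interferon-stimulated response element, GAAA then any 2 bases then GAAA, was searched on both strands. It was present in 15 of the 25 genes (60.0%), and in 1079 of 27025 genes with a window (3.99%; 1131 of 32851 windows, 3.44%). The gamma-activated site TTCNNNGAA, which reads the same on both strands, was present in 5 of the 25 genes (20.0%) and in 2582 of the 27025 genes (9.55%). A match describes these letters in this window and is no proof of a bound site. Lack of a match is likewise no proof that a gene has no such element. The 250 bases before the start are shown for 6 genes with the element, because they show the element in both families with close copies and in Isg15 and Rsad2, a pair of standard markers of the response. Capitals mark each match, which reads as its reverse complement where the element lies on the other strand.
Sequences run 5′ to 3′ on the gene's strand, at chr19:34640639-34640888, plus strand (Ifit1), chr19:34583279-34583528, plus strand (Ifit3), chr19:34607707-34607956, plus strand (Ifit3b), chr4:156200819-156201068, minus strand (Isg15), chr5:120907526-120907775, minus strand (Oas1a) and chr12:26456453-26456702, minus strand (Rsad2).
Ifit1: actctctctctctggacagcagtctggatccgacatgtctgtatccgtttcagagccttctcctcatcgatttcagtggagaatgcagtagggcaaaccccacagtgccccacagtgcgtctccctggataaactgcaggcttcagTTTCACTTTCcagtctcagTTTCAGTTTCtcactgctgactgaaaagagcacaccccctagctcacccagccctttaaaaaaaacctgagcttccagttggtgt
Ifit3: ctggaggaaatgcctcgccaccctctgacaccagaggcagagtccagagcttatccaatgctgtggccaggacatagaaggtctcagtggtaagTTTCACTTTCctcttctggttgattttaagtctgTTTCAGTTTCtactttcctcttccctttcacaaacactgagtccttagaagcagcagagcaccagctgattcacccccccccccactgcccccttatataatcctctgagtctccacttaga
Ifit3b: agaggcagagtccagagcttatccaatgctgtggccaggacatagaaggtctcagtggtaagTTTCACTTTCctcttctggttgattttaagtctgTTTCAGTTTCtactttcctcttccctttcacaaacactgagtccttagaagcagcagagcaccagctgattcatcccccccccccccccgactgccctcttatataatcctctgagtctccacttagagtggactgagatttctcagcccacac
Isg15: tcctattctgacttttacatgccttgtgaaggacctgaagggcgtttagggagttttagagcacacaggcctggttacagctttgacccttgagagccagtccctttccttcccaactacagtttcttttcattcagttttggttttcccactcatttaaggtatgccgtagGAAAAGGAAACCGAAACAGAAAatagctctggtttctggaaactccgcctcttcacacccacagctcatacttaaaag
Oas1a: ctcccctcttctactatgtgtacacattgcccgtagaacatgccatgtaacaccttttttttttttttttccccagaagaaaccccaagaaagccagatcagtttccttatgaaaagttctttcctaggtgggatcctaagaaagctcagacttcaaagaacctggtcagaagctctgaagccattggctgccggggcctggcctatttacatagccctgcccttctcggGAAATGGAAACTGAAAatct
Rsad2: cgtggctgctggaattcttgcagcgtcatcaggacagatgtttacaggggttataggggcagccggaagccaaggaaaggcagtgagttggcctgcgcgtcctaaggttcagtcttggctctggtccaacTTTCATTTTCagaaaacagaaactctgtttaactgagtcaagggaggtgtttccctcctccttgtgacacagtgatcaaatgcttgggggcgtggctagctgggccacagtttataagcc
Ifit1, Ifit3 and Ifit3b each held 2 matches on the opposite strand. In Isg15, 3 overlapping matches stood side by side. In Oas1a, 2 overlapping matches ended just before the start, and its neighbour Oas1g held the same arrangement. Windows of Ifit3 and Ifit3b shared an unbroken run of 169 bases that takes in both elements, and those of Oas1a and Oas1g shared a run of 73 bases. The longest run shared by Ifit1 and Ifit3 was 13 bases.

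**Figure D1:**
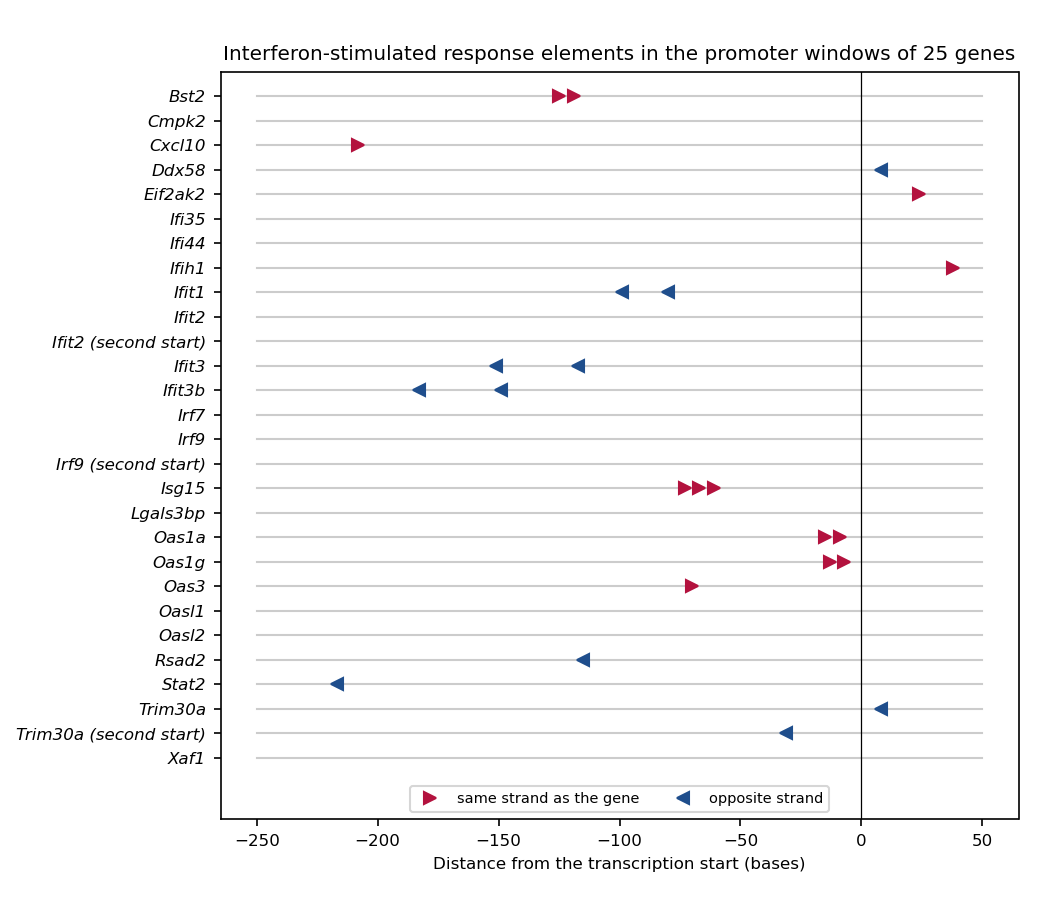
Position of each response element match (triangles at the middle of the match) in the promoter windows of 25 interferon-stimulated genes, by distance in bases from the transcription start. Matches were found in 15 of the 25 genes, on either strand and on both sides of the start.

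Reads of near-identical copies cannot always be told apart, and how the authors' counting treated them is not given in the sources used here. Of the 100-base stretches of Oas1a transcripts, 40.9% occur in another gene, chiefly Oas1g. This share was 31.3% for Oas1g, 31.7% for Ifit3 and 27.4% for Ifit3b, so the split between these partners is uncertain. Rtp4 (9.28%), Trim30a (4.41%) and Ifit1 (3.29%) shared less. Exons of Irf7, Dhx58, Oasl1, Usp18, Eif2ak2, Ifi35 and Cxcl10 overlap a gene on the other strand, and the strand setting of the counts is not given. The annotation lists Mx2 as a polymorphic pseudogene.

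All 35 genes had signal in these livers, and 31 of them in every mouse. Those listed at 0 in some mice were Ifi27l2b (9 mice), Mx1 (2), Oas3 (2) and Mx2 (1). The transcription factors differed in how widely they ranged. Irf7, the inducible factor that amplifies interferon output, ran from 1.33 to 15.7 in chow females (median 3.22), from 1.11 to 21.0 in high fat females (5.50), from 1.05 to 23.0 in chow males (4.12) and from 1.30 to 39.0 in high fat males (4.84). Stat2, a standing subunit of the interferon-activated complex, stayed between 10.1 and 29.0 over all mice, and Irf9, its DNA-binding partner, between 3.63 and 16.5. The 10th and 90th percentiles of mice lay 6.76 times apart for Irf7, 1.84 times for Irf9 and 1.46 times for Stat2.

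The RNA sensors Ifih1 (MDA5) and Ddx58 (RIG-I) were also narrow, with 90th to 10th percentile ratios of 1.62 and 1.66. Dhx58, the helicase LGP2 that modulates them, had a ratio of 2.45, and the nucleic acid sensor Zbp1 one of 4.57. Among the IFIT proteins, which bind viral RNA and translation factors, the ratio was 3.38 to 4.88. It was 3.79 to 11.6 among the oligoadenylate synthetases and their relatives (the Oas and Oasl genes), several of which switch on RNase L. The ubiquitin-like protein gene Isg15 had a ratio of 3.46 and Usp18, which removes ISG15 and dampens the receptor, one of 7.05. Bst2 (tetherin, which holds budding virus at the cell surface) and Eif2ak2 (PKR, a kinase that halts translation) were narrow at 2.23 and 1.55.

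**Figure D2:**
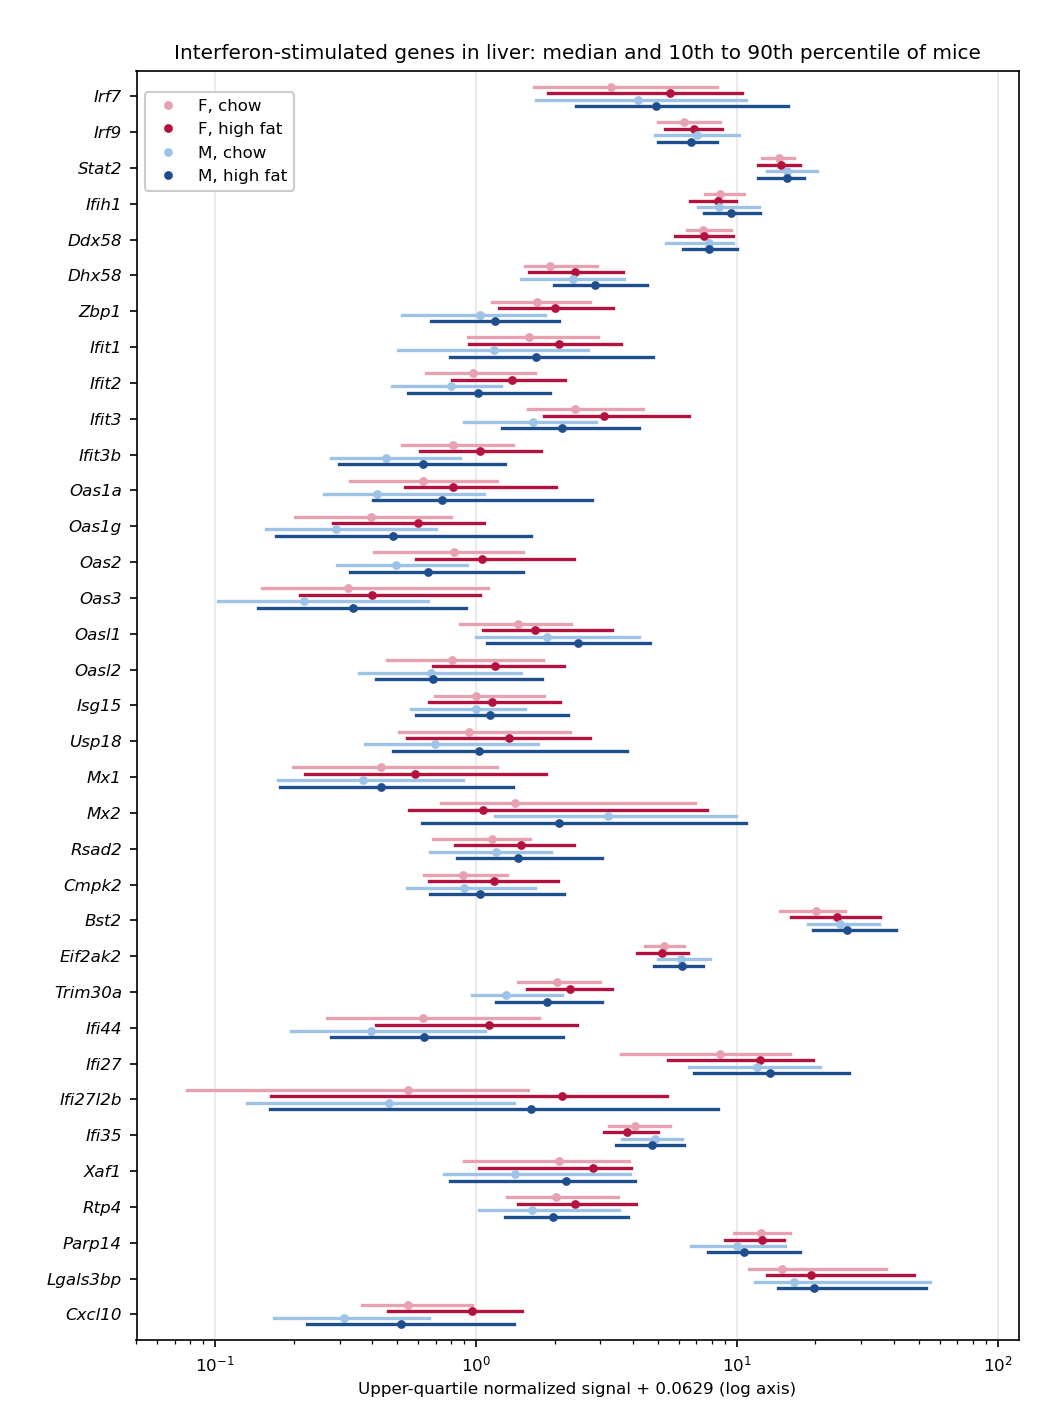
Upper-quartile normalized signal plus 0.0629 of each of the 35 genes on a log axis, with a dot for the group median and a line from the 10th to the 90th percentile of its mice; signal is not divided by transcript length. Groups overlapped for every gene, and Stat2 had the lowest ratio of the 90th to the 10th percentile in each of the 4 groups.

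The first comparison asked how a high fat diet was associated with these transcripts. On high fat, 26 of the 35 genes were higher and 0 were lower (limma, adjusted p under 0.05, averaged over sexes). Among all 14602 genes, 15.0% were called higher and 41.9% lower. Every IFIT gene (4 of 4), every Oas and Oasl gene (6 of 6), Isg15 with Usp18, and Cxcl10 were higher. Of the remaining classes, 1 of 3 transcription factors (Irf7), 2 of 4 sensors (Dhx58 and Zbp1), 4 of 7 other antiviral effectors and 6 of 8 further induced genes were higher. The median log2 change of the 35 was 0.34 against -0.067 for all genes tested. After median-of-ratios rescaling 27 were higher and 0 lower, where 24.9% of all genes were higher and 22.9% lower. Quantile normalization gave the same counts of the 35, against 20.9% and 25.2% of all genes. At an unadjusted p under 0.05 there were 27 genes, all higher.

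Ifi27l2b, a member of the Ifi27 family of small mitochondrial proteins, had the largest change of the 35 (chr12:103450898-103457223, minus strand, GRCm38). Its signal ran from 0 to 2.46 in chow females (median 0.488) and from 0 to 10.5 in high fat females (2.07), and from 0 to 2.98 in chow males (0.4) and 0 to 13.5 in high fat males (1.56). Groups overlapped, each with mice at 0, while 74 of 94 high fat mice lay above the chow median of their sex. The log2 change was 1.61 ± 0.25 (SE), 3.06-fold, with limma adjusted p = 7.7e-09.

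Cxcl10, the chemokine that draws activated T and NK cells through CXCR3, was next by p (chr5:92346638-92348889, minus strand). Its signal was 0.224 to 2.11 in chow females (median 0.486) and 0.152 to 2.49 in high fat females (0.905). In males it was 0.0523 to 0.927 on chow (0.25) and 0.101 to 2.30 on high fat (0.453). The ranges overlapped in both sexes and 76 of 94 high fat mice exceeded the chow median of their sex. The change was 0.73 ± 0.11 (1.66-fold, limma adjusted p = 8.08e-09).

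Oas1a, which makes the messenger that activates RNase L, had medians of 0.561 and 0.756 in females and 0.353 and 0.679 in males on chow and high fat. Its ranges were 0.167 to 2.59 and 0.166 to 3.50 in females and 0.106 to 2.17 and 0.131 to 10.8 in males. Of the high fat mice, 79 of 94 were above the chow median of their sex, the largest such number among the 35 genes. The log2 change was 0.70 ± 0.14 (limma adjusted p = 3.17e-06).

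Ifit2, an RNA-binding antiviral protein, had medians of 0.910 and 1.31 in females and 0.741 and 0.952 in males, with 73 of 94 high fat mice above the chow median. Its change was 0.45 ± 0.09 (adjusted p = 5.36e-06). Ifi44, a cytoplasmic protein of uncertain function, had medians of 0.566 and 1.06 in females and 0.334 and 0.569 in males and a change of 0.77 ± 0.16 (1.71-fold, adjusted p = 1.3e-05). Trim30a, a negative regulator of NF-kB signalling, had medians of 1.98 and 2.23 in females and 1.24 and 1.81 in males and a change of 0.36 ± 0.07 (adjusted p = 1.88e-05). In each of these genes the groups overlapped.

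The other 20 genes called higher had log2 changes of 0.21 (Bst2) to 0.64 (Oas1g). Changes of the 9 genes that did not pass the test lay between -0.38 ± 0.22 (Mx2, adjusted p = 0.12) and 0.35 ± 0.16 (Mx1, adjusted p = 0.0525). They were Mx1, Mx2, Irf9, Stat2, Ifih1, Ddx58, Eif2ak2, Ifi35 and Parp14. Irf9, Stat2, Ifih1, Ddx58, Eif2ak2, Ifi35 and Parp14 all had changes between -0.05 and 0.03. The diet ranges overlapped for all 35 genes.

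**Figure D3:**
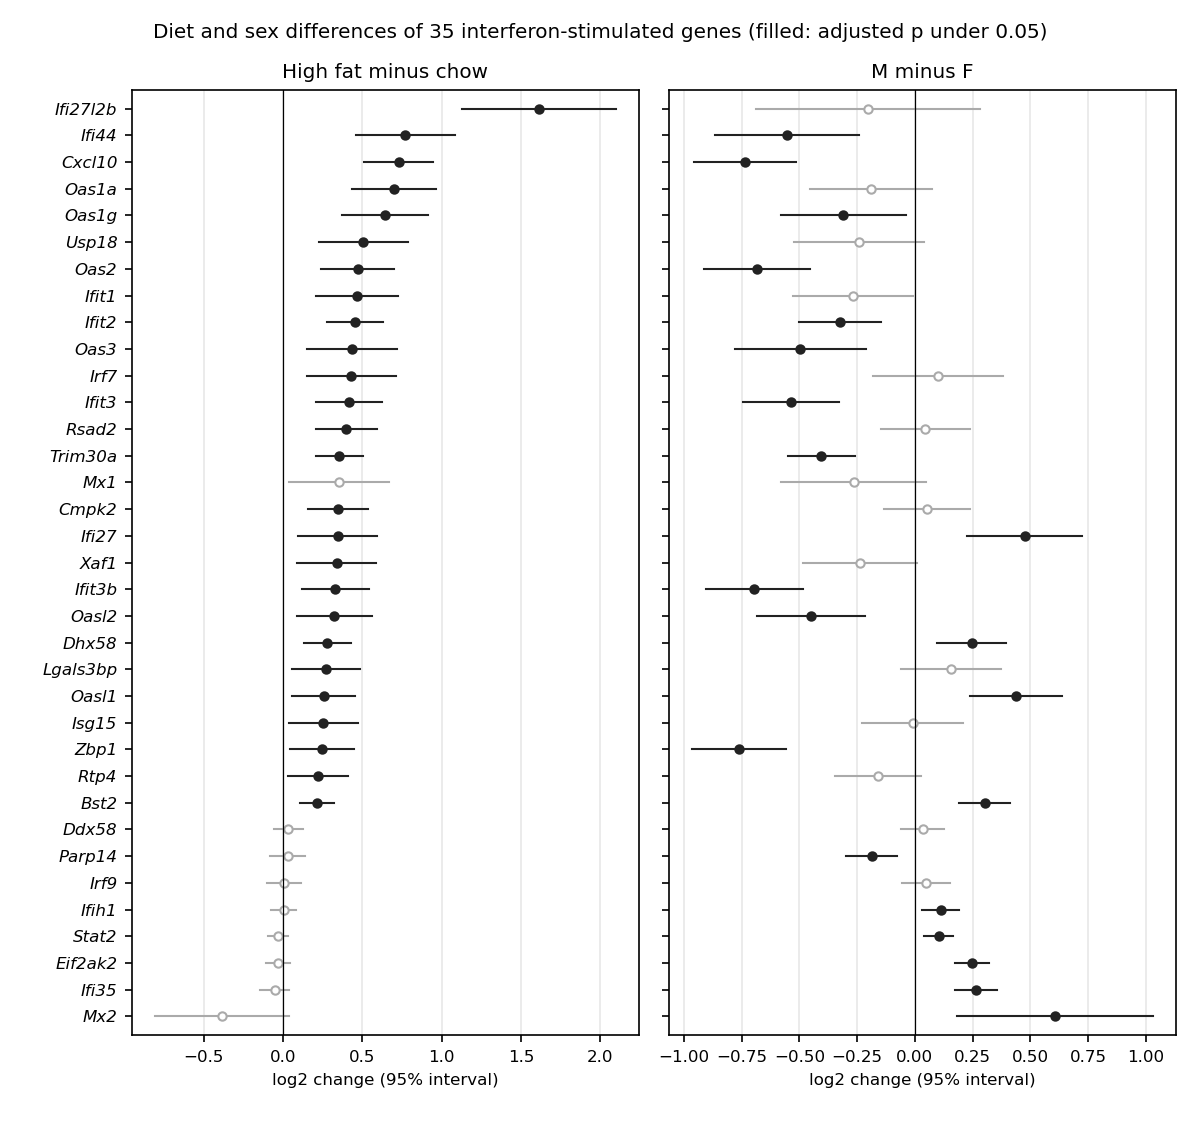
Log2 change of each of the 35 genes by diet (left) and by sex (right), as limma estimates with 95% intervals, in black where the adjusted p was under 0.05. On the left 26 are black and all lie above 0; on the right 9 black points lie above 0 and 12 below.

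Tested within each sex, 13 genes were higher on high fat in females and 15 in males, with 0 lower in either, where 10.0% and 11.4% of all genes were higher and 23.3% and 39.8% lower. At an unadjusted p under 0.05 there were 19 in each sex, all higher except Ifih1 in females (-0.11 ± 0.06). Among the IFIT genes the change reached the threshold in 1 of 4 in females and 4 of 4 in males. The test of the difference between the sexes called 0 of the 35 genes (limma, 8.38% of all genes), with 2 at an unadjusted p under 0.05. The lowest was Ifih1, whose change was 0.23 ± 0.08 larger in males (adjusted p = 0.0523), and its adjusted p ran from 0.028 to 0.417 over the alternatives, 5 of which called it.

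Mice carried 1 of 2 outbreeding generation labels, G11L1 (97 mice) and G11L2 (95 mice), whose meaning the labels do not explain. Within G11L1 alone, 8 of the 35 genes were higher on high fat, and within G11L2 alone 19, with 0 lower in either. Of all 14602 genes, 1341 were higher and 4372 lower within G11L1, and 1529 and 4809 within G11L2. A test of whether the diet change differed between the labels called 0 of the 35 and 0 of all genes in limma, with 0 of the 35 at an unadjusted p under 0.05. Between the labels themselves 0 of the 35 differed (0.938% of all genes, 0 at an unadjusted p under 0.05). By coat colour, 0 of the 35 differed between black and agouti mice (0.0890% of all genes, 0 unadjusted) or between white and the other coats (0.0137%, 1 unadjusted, Xaf1 at p = 0.0338).

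Markers of some immune cells, though few of T, NK and B cells, moved with diet as well. Their counts stand beside 15.0% of all genes higher and 41.9% lower on high fat. In bulk RNA more cells of a type and more RNA per cell cannot be told apart. Of 10 monocyte and recruited macrophage markers, 7 were higher on high fat (Gpnmb 2.28 ± 0.21, Trem2 1.25 ± 0.12) and 0 lower. Their summed signal was 7.44 to 124 and 8.23 to 58.5 in females on chow and high fat (medians 17.2 and 22.6) and 6.7 to 33.3 and 8.05 to 65.6 in males (14 and 22.1). Of 11 Kupffer cell markers 5 were higher and 0 lower, and their summed medians were 119 and 128 in females and 77 and 94.3 in males. Tested within each sex, 0 Kupffer markers were higher and 2 lower in females, and 6 were higher and 0 lower in males. Of 13 tested T, NK and B cell markers 1 was higher and 0 lower. Of 6 tested plasmacytoid dendritic cell markers 4 were higher, and of 6 neutrophil markers 4 were higher and 1 lower. Of 8 hepatocyte markers 6 were lower and 0 higher, and of 8 sinusoidal endothelial markers 1 was higher and 3 lower. The part of these cells in the diet result was not tested.

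The second comparison asked how males and females differed. Here the 35 genes split: 9 were higher and 12 lower in males, against 45.0% and 23.5% of all genes. Of 4 IFIT genes 3 were lower in males and of 6 Oas and Oasl genes 4 were lower and 1 (Oasl1) higher. Cxcl10, Zbp1, Trim30a, Ifi44 and Parp14 were lower too. Higher in males were Stat2, the sensors Ifih1 and Dhx58, Bst2, Eif2ak2, Mx2, Ifi27 and Ifi35. The median change of the 35 was -0.19 against 0.071 for all genes. With median-of-ratios rescaling the split was 6 higher and 16 lower, where 30.4% of all genes were higher and 33.5% lower. With quantile normalization it was 7 and 11, against 34.1% and 29.9% of all genes. Stat2, Ifih1 and Dhx58 lost their calls under the first (adjusted p = 0.716, 0.632 and 0.0704), and Stat2, Ifih1 and Oas1g under the second (0.835, 0.843 and 0.0891). Mx2 was higher in males by 1.12 in G11L1 mice and by 0.06 in G11L2 mice, where it was not called (adjusted p = 0.882).

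Zbp1, the sensor of Z-form nucleic acid that can start cell death, (chr2:173206612-173218923, minus strand) had medians of 1.66 and 1.95 in females on chow and high fat and of 0.971 and 1.12 in males. Its ranges were 0.641 to 3.21 and 0.786 to 6.37 in females and 0.318 to 5.40 and 0.119 to 7.57 in males. Of the males, 16 of 94 lay above the female median on the same diet. It differed by -0.76 ± 0.10 on the log2 scale (1.69-fold lower in males, limma adjusted p = 3.82e-11). Cxcl10, with the values given above, differed by -0.74 ± 0.11 (lower in males, limma adjusted p = 2.22e-09), and 19 of 94 males exceeded the female median.

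Ifit3b, a close copy of Ifit3, had medians of 0.752 and 0.974 in females and 0.389 and 0.566 in males (-0.69 ± 0.11, adjusted p = 3.67e-09). Ifit3 itself had medians of 2.34 and 3.02 in females and 1.59 and 2.07 in males (-0.54 ± 0.11, adjusted p = 2.79e-06). Oas2, another activator of RNase L, had medians of 0.760 and 0.993 in females and 0.433 and 0.591 in males (-0.68 ± 0.12, adjusted p = 9.06e-08). For Trim30a the sex difference was -0.40 ± 0.07 (adjusted p = 6.19e-07). Sex ranges overlapped for all 35 genes.

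Of the genes higher in males, Eif2ak2 had medians of 5.19 and 5.10 in females and 6.05 and 6.08 in males (0.25 ± 0.04, adjusted p = 2.25e-09), with 75 of 94 males above the female median. Ifi35, which partners with NMI in innate signalling, had medians of 4.00 and 3.74 in females and 4.81 and 4.68 in males (0.27 ± 0.05, adjusted p = 1.23e-07). Bst2 had medians of 20.1 and 24.1 in females and 24.8 and 26.4 in males (0.30 ± 0.06, adjusted p = 5.29e-07). Oasl1, which represses translation of Irf7, was higher by 0.44 ± 0.10 (adjusted p = 6.35e-05) and Ifi27 by 0.47 ± 0.13 (adjusted p = 0.0005). Dhx58 had a difference of 0.25 ± 0.08 (adjusted p = 0.00282), and in G11L2 mice alone it was not called (adjusted p = 0.0782).

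Cell markers also differed by sex, where 45.0% of all genes were higher and 23.5% lower in males. All 11 Kupffer cell markers were lower in males (Vsig4 -0.74 ± 0.07, Clec4f -0.54 ± 0.06), with summed medians of 119 and 128 in females on chow and high fat and 77 and 94.3 in males. Of 13 tested T, NK and B cell markers 12 were lower and 1 higher. Of 8 sinusoidal endothelial markers 7 were lower, and of 10 monocyte markers 5 were lower. Of 6 tested plasmacytoid dendritic cell markers 1 was higher and 3 lower, and of 6 neutrophil markers 0 were higher and 3 lower. Of 8 hepatocyte markers 5 were higher and 1 lower. Their part in the sex result was not tested.

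The 35 genes varied more between mice of a group than most genes did, in a comparison not matched for signal level. Depending on the group, 7 to 15 of the 35 had a median signal below 1. The residual SD of log2 signal had a median of 0.75 over the 35 (0.22 for Stat2 to 1.73 for Ifi27l2b) and of 0.33 over all tested genes, and 31 of the 35 were above the latter. By group the median SD of the 35 was 0.61 in chow females, 0.66 in high fat females, 0.74 in males on chow and 0.92 in males on high fat, where all genes had 0.29, 0.32, 0.34 and 0.34. A test of spread called 3 of the 35 genes more scattered in males (4.27% of all genes) and 0 less scattered (0.623%). They were Parp14, an ADP-ribosyltransferase (0.15, adjusted p = 0.00186), Zbp1 (0.21, adjusted p = 0.0386) and Ifit1 (0.26, adjusted p = 0.0471), as differences in mean absolute deviation on the log2 scale. Zbp1 and Ifit1 lost the call without the high fat male described next, leaving 1. By diet 0 of the 35 were called for spread (2.23% of all genes), with 3 at an unadjusted p under 0.05 (limma).

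The highest values often came from the same mice. High fat male 367 was the highest of its group for 24 of the 35 genes. Its signal was 20.8 times the group median for Ifi44, 16.0 times for Oas1a, 15.5 times for Usp18, 13.4 times for Ifit3 and 8.07 times for Irf7. Stat2 was 1.25 times and Eif2ak2 1.51 times the median in the same mouse. Ifit3 reached 27.8 in mouse 367 and 9.95 in mouse 368, against a group median of 2.07. Mouse 367 had 14.8 M reads and was among the 10 mice least alike the others by their correlation with all mice. Its summed monocyte markers were 65.6 against a group median of 22.1, the highest of 46 mice, its Kupffer markers 169 against 94.3 and its hepatocyte markers 13480 against 20760; their part was not tested. Without this mouse 23 genes remained higher on high fat, and Isg15, Rtp4 and Zbp1 lost the call. In the other groups 2 or 3 mice each were among the 5 highest for at least 18 of the genes.

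**Figure D4:**
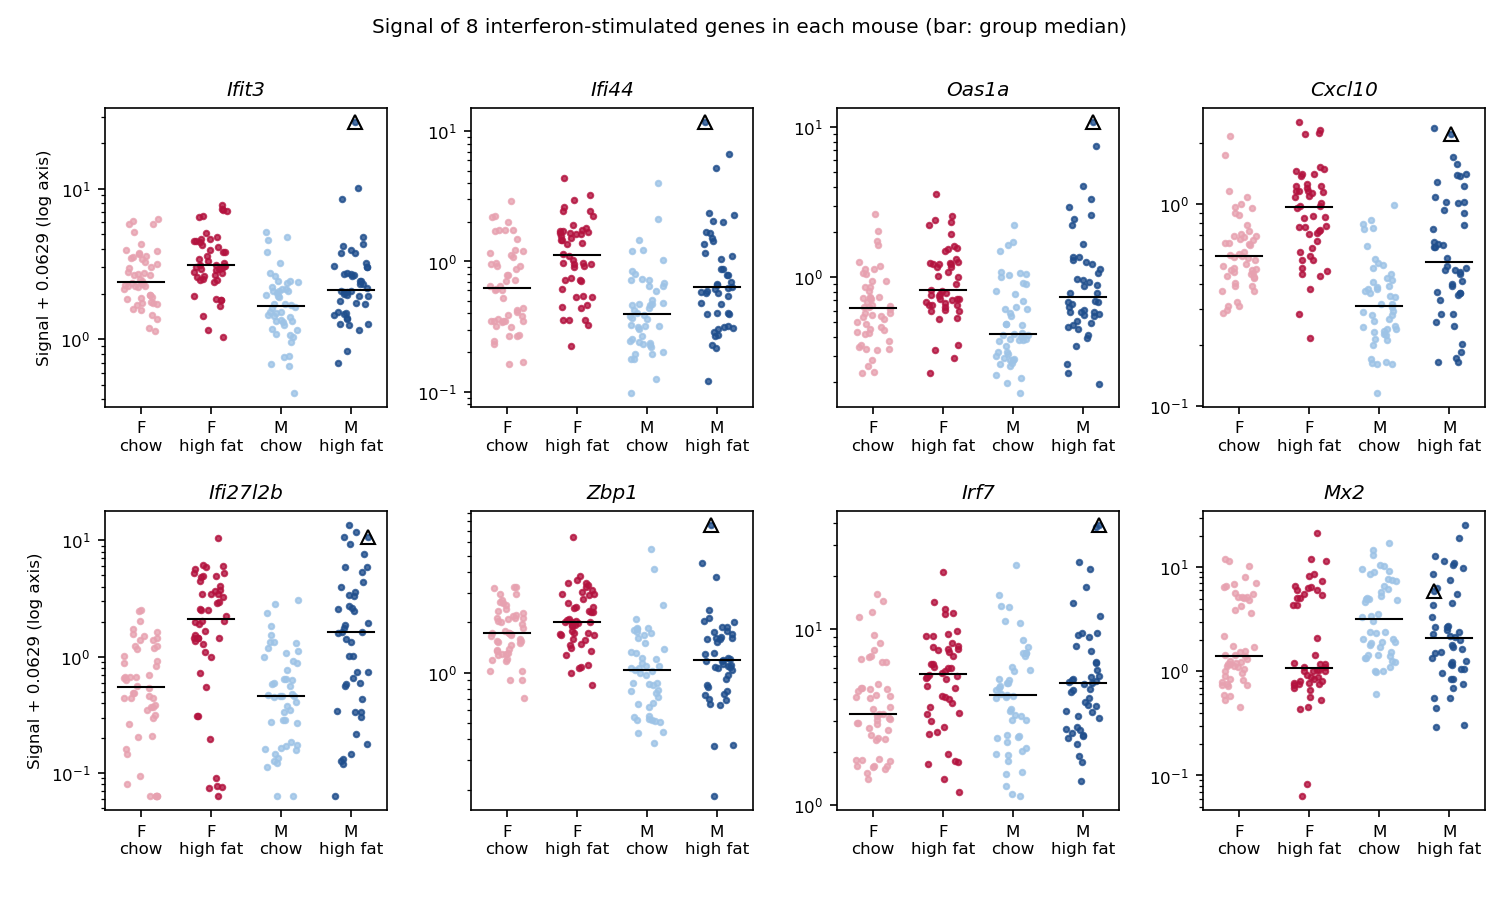
Signal plus a pseudocount of 0.0629 in every mouse, on log axes, for 8 genes in the 4 groups, with bars at group medians and open triangles on high fat male 367. The triangle tops its group for Ifit3, Ifi44, Oas1a, Zbp1 and Irf7, not for Cxcl10, Ifi27l2b or Mx2, and the Mx2 values of females leave a gap between a low and a high set.

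Mx2 spread in another way. Together with Mx1 it encodes a dynamin-like GTPase that blocks viruses, and many laboratory strains carry defective copies of both genes. In high fat females 31 mice had Mx2 signal up to 2.03 and 17 had 4.24 or more, with none between. In chow females 32 mice were at 2.14 or less and 18 at 3.58 or more. This gap of 1.04 and 0.73 on the log2 scale was chosen for mention after its values were seen. For Mx2, 10 of the 46 high fat males were above mouse 367. Lgals3bp, a secreted glycoprotein, had smaller gaps in all 4 groups, of 0.32 in chow females to 0.48 in high fat females. In the latter 38 mice had up to 32.9 and 10 had 45.9 or more. Ifi27l2b had a gap of 1.12 in high fat females at very low signal, between 5 mice up to 0.027 and 43 at 0.132 or more.

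The genes varied together across mice of a group. Over the 595 pairs, the median Spearman rho was 0.46 in chow females, 0.53 in high fat females, 0.50 in males on chow and 0.60 in males on high fat, while pairs of all tested genes had medians of 0.026, 0.030, 0.019 and 0.039. Pairs over 0.5 made up 42.5%, 56.3%, 49.4% and 74.3% of the 595 and 0.587%, 1.31%, 0.772% and 1.84% of all pairs. Since the pairs share mice and libraries, these values are descriptions without a test. The highest pair was Oas1a with Oas3 in chow females (0.89), Irf7 with Oas1a in high fat females (0.88), Irf7 with Rtp4 in chow males (0.91) and Irf7 with Usp18 in high fat males (0.91). Over all 192 mice, with values taken as deviations from the group median, Irf7 had the highest median rho with the others (0.71), followed by Usp18 (0.70), Rtp4 (0.69) and Ifi44 (0.67). The lowest were Ifi27l2b and Mx2 (0.30), Stat2 (0.31), Cxcl10 (0.32) and Ifi35 (0.37). Ifi27l2b and Cxcl10, which had the smallest p for diet, were among these 5.

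**Figure D5:**
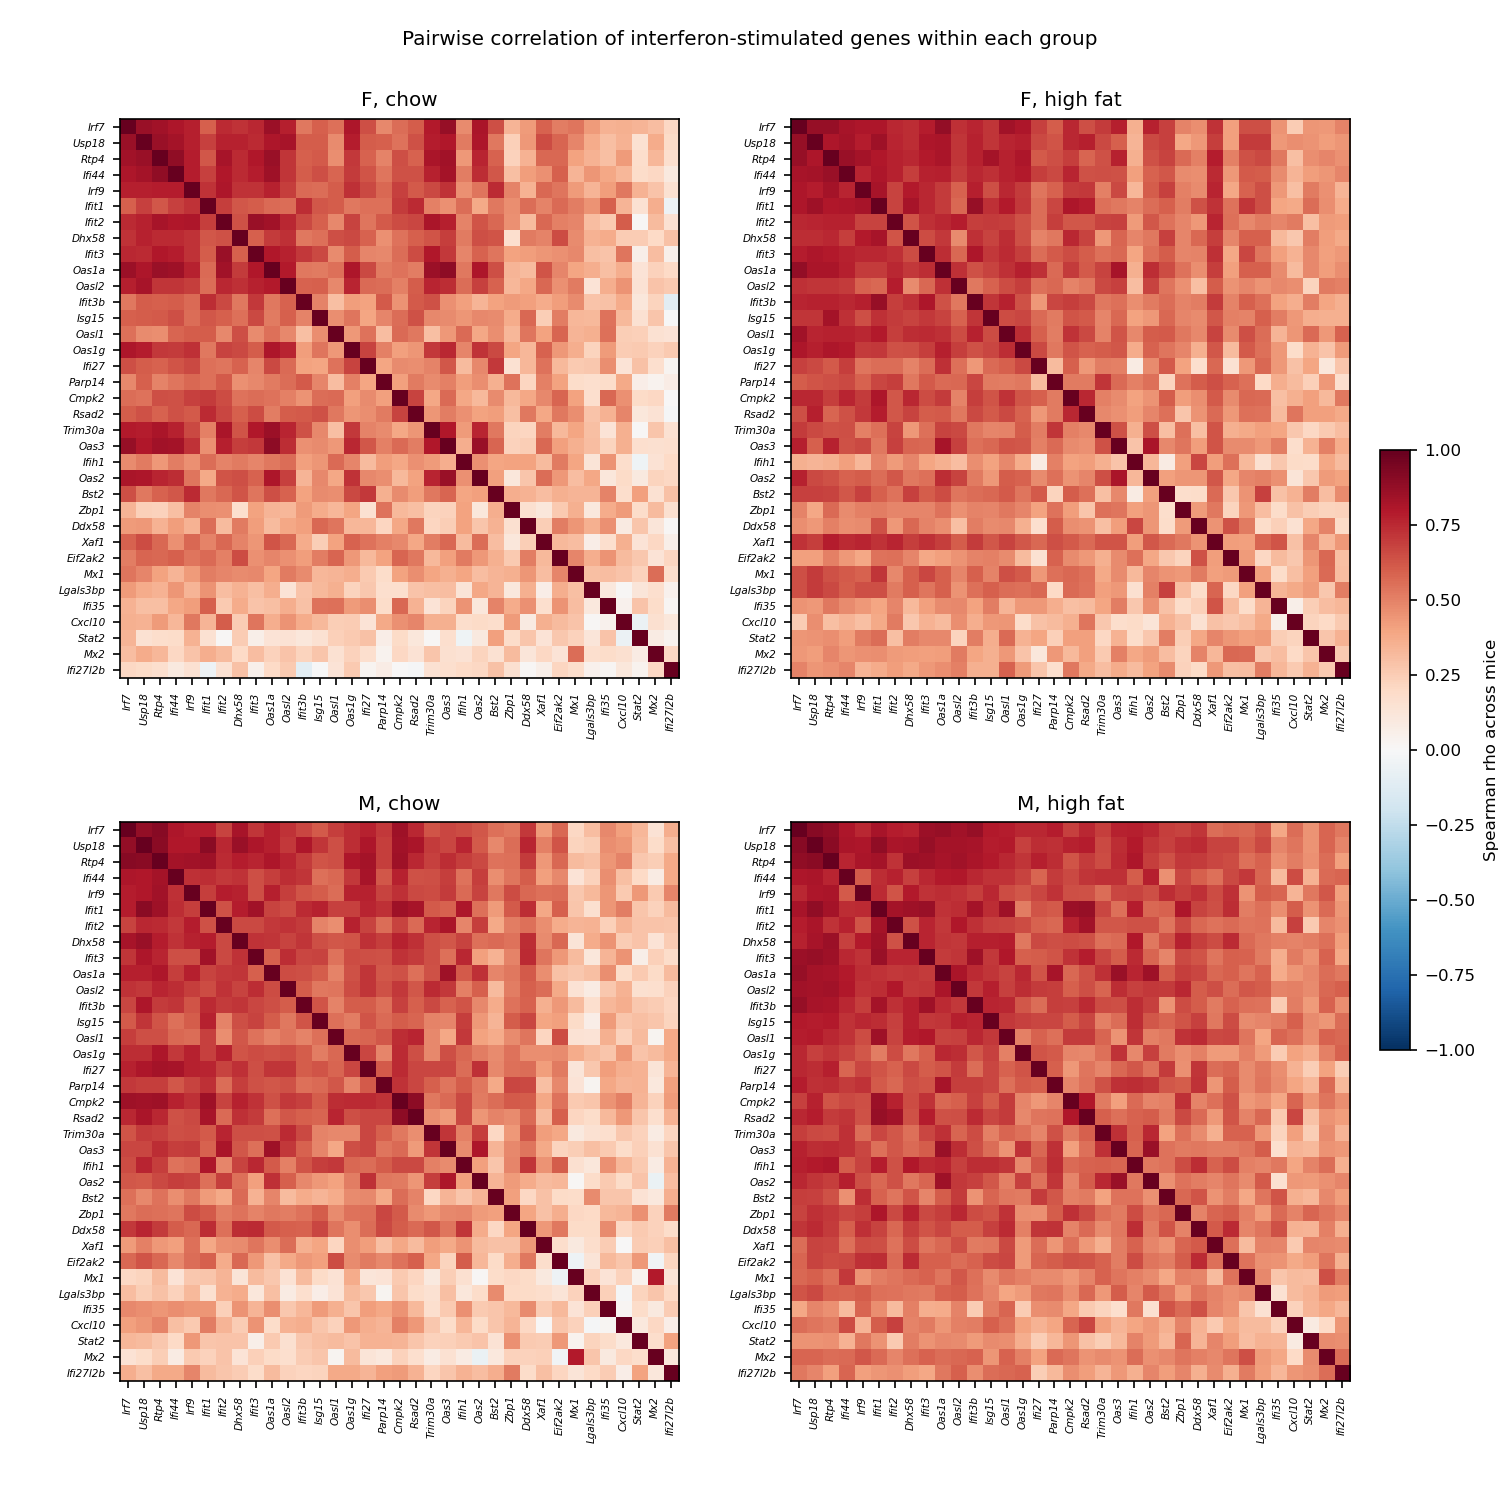
Spearman rho of every pair of the 35 genes across the mice of each group, with genes ordered by their median rho over 192 mice. Median rho runs from 0.46 in chow females to 0.60 in high fat males. The last rows (Cxcl10, Stat2, Mx2, Ifi27l2b) are paler than the first rows in each group. In chow females Stat2, Mx2 and Ifi27l2b had the lowest median rho of the 35 (0.15, 0.21 and 0.15).

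For 10 pairs chosen by function, the correlation was tested within each of the 4 groups, 40 relations in all. Every relation had a positive r and rho with adjusted permutation p under 0.05, before and after median-of-ratios rescaling. Ifit1 and Ifit3 in high fat males (46 mice) had r = 0.91 and rho = 0.86, both with permutation p = 1e-05, the smallest that 100000 resamples can give (adjusted p = 1.38e-05 for r and 1.43e-05 for rho). Without the 2 mice farthest from the median r was 0.86, and it was 0.93 in G11L1 and 0.85 in G11L2 mice. The lowest r was that of Stat2 with Irf9 in chow females (50 mice), the 2 subunits of the same complex, at r = 0.30 (permutation p = 0.0329, adjusted p = 0.0329) and rho = 0.34 (permutation p = 0.0155, adjusted p = 0.0159). Without the 2 farthest mice r was 0.34, and it was 0.28 in G11L1 and 0.33 in G11L2 mice. The lowest rho was that of Cxcl10 with Ifit1 in chow females, at 0.34 (permutation p = 0.0169, adjusted p = 0.0169), with r = 0.40 (permutation p = 0.00376, adjusted p = 0.00396), 0.33 without the 2 farthest mice, 0.33 in G11L1 and 0.45 in G11L2 mice. Ifit3 and Ifit3b, with r of 0.71 to 0.88 over the groups, share reads as described above.

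Outside the 35, the genes most like them by median rho over 192 mice included Ddx60 (0.65), Adar (0.61), Apol9a (0.60), Gm43302 (0.59), Gbp3, Herc6 and Shisa5 (0.58 each), Gm12250 (0.57) and Rnf213 (0.56). Only 11 of 14567 genes outside had a median over 0.5, while 22 of the 35 did. Summed Kupffer cell markers had a median rho of 0.33 with the 35 genes (0.06 for Ifi27l2b to 0.59 for Oas2), neutrophil markers 0.24, and plasmacytoid dendritic cell and monocyte markers 0.19 each. Hepatocyte markers had -0.11 and sinusoidal endothelial markers -0.19. The receptor chains Ifnar1 and Ifnar2 had -0.20 and -0.06.

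The response element was set beside these values. The median rho with the other genes, as a median over groups, was 0.55 in the 15 with an exact match and 0.59 in the 10 without. Of these, 11 of 15 and 8 of 10 were higher on high fat. Elements that depart from the exact letters or lie outside the window were not searched for. Genes without a match may therefore still carry one.

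Other steps of the pathway are given as counts, to be read against the shares of all genes, which were 15.0% higher and 41.9% lower on high fat and 45.0% higher and 23.5% lower in males. Several lists lay near these shares, among them the sensors by sex and the receptor list's lower genes on high fat. Rows of 3 interferon ligands (Ifnk, Ifnz and Ifng) were in the table, all were too low to test, and their summed signal was at most 0.0806 in any mouse. Of 10 genes listed for the receptors and the signalling directly below them, 4 were higher and 4 lower on high fat (Il10rb 0.20 ± 0.04, Tyk2 -0.19 ± 0.02, Ifnar2 -0.20 ± 0.03), and 1 was higher and 5 lower in males. Of 13 nucleic acid sensors and adaptors, 5 were higher (Tlr3 0.22 ± 0.04) and 2 lower on high fat (Tbk1 -0.18 ± 0.03), and 6 were higher and 4 lower in males. Of 7 further interferon regulatory factors, 1 was higher and 4 lower on high fat (Irf5 -0.81 ± 0.10, Irf3 -0.24 ± 0.03), and 4 were higher and 3 lower in males. Of 9 feedback regulators 0 were higher and 6 lower on high fat. Of 52 further interferon-stimulated genes tested, 17 were higher (Samd9l 0.44 ± 0.08, Slfn9 0.56 ± 0.10) and 9 lower on high fat, and 8 were higher and 25 lower in males.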

How the data were processed

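Liver mRNA was sequenced from 192 mice as 384 samples, 2 technical repeats per mouse, with 100 bp single-end reads per the labels. The authors deposited a single column per mouse, which makes the mouse the unit of replication. The deposited values are an upper-quartile normalized signal, per the file headers; the upper quartile over all values of a mouse was 3.88 to 5.47. The submitters' processing notes name GRCm38, mm10 and CASAVA 1.8.0; the aligner, counting tool and strand setting are not given in the sources used here. Of 21454 IDs, 21022 matched a symbol in GENCODE M21. Depth was read from the step of low values: 78.3% to 82.6% of values up to 100 reads were within 0.1 of whole numbers of reads, too few for a test on counts.

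Genes above 0 in at least 46 mice with a mean of at least the pseudocount were tested, 14602 in all. limma 3.58.1 (R 4.3.3) fitted log2(signal + 0.0629), the pseudocount being 1/100 of the median upper quartile of values above 0 (6.29), with 4 group means, the generation label and a mean-variance trend. Fold changes are on this scale and understate changes of low genes. P-values were adjusted by Benjamini-Hochberg over all genes tested and called under 0.05. Coat colour was fitted in 186 agouti, black and white mice. Spread was tested on absolute deviations from the group median. Pair correlations used 100000 permutations (scipy 1.17.1) and adjustment over 40 relations. The fits were tested on simulated data. The test of the diet change between generation labels was added after seeing the data. Genes, lists and markers were chosen with earlier results of these data known. In each contrast up to 6 called genes per direction with the smallest p are given in full, up to 4 per list, and the 10 outside genes most alike. Some genes that this rule selects are not reported here. Alternatives covered the pseudocount, filters, 3 other scalings, the covariate, each generation label, a fold of 1.5, the mouse number as a block and, added after seeing the data, fits without mice that stood apart.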

Additional observations from a re-analysis of the deposited data

How the results depend on the processing

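The direction held under every alternative in which a gene was tested, for the 26 genes called by diet and the 21 called by sex. It held likewise for the 13 and 15 called by diet in females and males, and for the 3 called for spread by sex. Fewer kept the call in every alternative that tested them, 5 for diet and 4 for sex. In the same way 1 kept it for diet in females, 4 for diet in males and 0 for spread by sex. The filter at a mean of 10 pseudocounts tested 31 of the genes and left out Oas1g, Oas3, Mx1 and Cxcl10. Oas1g and Cxcl10 are among the 5 for diet and the 4 for diet in males, and Cxcl10 among the 4 for sex. A fold of at least 1.5 left 5 genes for diet, 5 for sex, 3 for diet in females and 7 for diet in males. G11L1 mice alone gave 8 for diet, 1 in females, 6 in males and 0 for spread by sex. Of all 14602 genes, 1341, 710 and 1019 were higher on high fat there, and 192 were called for spread by sex. G11L2 mice alone gave 4 for diet in females and 0 for spread by sex. Among all genes, 699 were higher on high fat in those females and 192 were called for spread by sex. The difference of the diet change between sexes had 1 gene, Ifih1, with quantile normalization, the stricter filter (a mean of 10 pseudocounts), rank-based scores, rescaling by median ratios, or the replicate block; the cause was not tested. Spread by sex had 1 gene, Parp14, with a pseudocount 10 times larger, under the 3 other scalings, without the 10 mice least alike and without mouse 367. Spread by diet had 3 genes with the larger pseudocount and 1 after median-of-ratios rescaling. Without the female low in Xist, Ifi27 lost its diet call in females (adjusted p = 0.0509). Without the 9 mice with pancreas transcripts, Oasl1, Isg15 and Rtp4 lost the diet call, Irf7 and Oasl2 that in females, Oas1g that by sex and Ifit1 that for spread. Without mouse 367, Oas3 lost the diet call in males.

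Females and males share mouse numbers in 92 pairs. Deviations of same-numbered mice had a median correlation of 0.0105 (-0.171 to 0.316). Of the 92 pairs 10 were over 0.1, and 4 females correlated best with their own number. Correlations of differently numbered mice were not summarized beside these. Whether same-numbered mice share an origin or handling is thus not settled here. With the mouse number as a replicate block, 21 genes were called by sex and 1 for the difference of the diet change between sexes. Of all 14602 genes, 9947 and 1163 were called in these fits. Depth limits genes of low signal such as Oas3, Mx1 and Ifi27l2b, which were listed at 0 in some mice.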
